A study of Mus musculus with 3 samples.

Results

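Macrophages carrying transcripts of Cbr2, Cd163 or Lyve1 were examined in 3 single-cell RNA sequencing libraries of mouse tibialis anterior muscle, taken 4 days after injury by barium chloride. The young PBS and old PBS groups received the vehicle and the old rMETRNL group received recombinant meteorin-like protein, all as intramuscular injections into injured muscle of C57/BL6J mice according to the study's methods. Each group had 1 library made from pooled triplicate samples, so the groups were not tested against each other and the intervals given between libraries cover counting error alone. The comparisons asked how these cells differed from other macrophages of the same muscle, with age, and after the protein was given.

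The cells were selected on measured unique molecular identifier (UMI) counts. Cells with fewer than 500 genes, or with 10% or more of their UMIs from mitochondrial genes, were left out. A cell counted as a macrophage with at least 3 UMIs of Adgre1, Csf1r and Fcgr1 together, no UMI of Pdgfra, Cd209a or Cd3e, under 5 UMIs of the monocyte gene Ly6c2, and under 5 UMIs of Mki67, Top2a, Cdk1, Birc5 and Cenpf, which mark cycling cells. Of the 14980 cells meeting these conditions, 3863 had at least 3 UMIs of Cd163, Lyve1 and Cbr2 together and are called gated macrophages here. The young PBS library held 1033 of them, old PBS 1149 and old rMETRNL 1681, out of 35247 kept cells in all. The remaining 11117 cells are called other macrophages, and no gated cell shared its barcode with a gated cell of another library. Over all cells, 80, 58 and 76 barcodes were shared by the pairs of libraries, and the libraries held 179295668 to 228966697 UMIs each. The median UMI count of gated macrophages was 16742, 15969 and 16345 in young PBS, old PBS and old rMETRNL, above the 14172, 14590 and 14006 of other macrophages.

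Macrophages that live in connective tissue and along vessels are known to be set up largely before birth, to renew themselves in part, and to clear dying cells and haemoglobin. After muscle injury they are joined by many macrophages that arise from blood monocytes, and the resident-type cells are commonly recognised by scavenger and lectin receptors such as LYVE1, CD163, FOLR2 and the macrophage mannose receptor. CD163 takes up complexes of haemoglobin and haptoglobin, LYVE1 binds hyaluronan and is also made by lymphatic endothelium, and CBR2 is a carbonyl reductase.

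The label of 3 positive genes was carried mainly by Cbr2 (chromosome 11, 120729489 to 120732114). Cbr2 was detected in 99.8%, 98.6% and 99.5% of gated macrophages in young PBS, old PBS and old rMETRNL. Cd163 (chromosome 6, 124304656 to 124330527) was detected in 20.04%, 26.5% and 26.3%. Lyve1 (chromosome 7, 110850607 to 110863239) was detected in 7.55%, 9.57% and 17.4%, so that most gated cells held neither Cd163 nor Lyve1. All 3 genes were found together in 3.19%, 3.74% and 8.74% of gated cells, and the Cbr2 UMIs by themselves reached the threshold in 97.2%, 91.0% and 95.7%. These values describe the selection and are not findings. Cells with 3 UMIs of the set, just inside the gate, held F13a1 at 175, 244 and 201 CPM, a scaled share of the UMIs summed over those cells, in young PBS, old PBS and old rMETRNL. Cells with 2 UMIs, just outside, held F13a1 at 122, 165 and 151 CPM, so the threshold ran through a continuous range.

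Promoter windows are shown for the gate genes Cbr2 and Cd163, for Ccl8, a chemokine gene that was higher in these cells than in other macrophages, and for the interferon-stimulated genes Isg15 and Ifit3, which differed between the libraries. The sequences are RefSeq windows of the GRCm38.p6 build on the strand of the gene, from 250 bases before to 50 bases after the start of transcription. For Lyve1 and Ccl24 no window is shown. In the first 3 windows capitals mark TGCTGA, the core of the element bound by MAF factors, and GAGGAA, the core of the PU.1 element, each on either strand. In the last 2 windows capitals mark GAAANNGAAA, the core of the interferon-stimulated response element, on either strand, and matches may overlap. The motifs were chosen with earlier results of these data known.
Cbr2, chr11:120731972-120732271, minus strand: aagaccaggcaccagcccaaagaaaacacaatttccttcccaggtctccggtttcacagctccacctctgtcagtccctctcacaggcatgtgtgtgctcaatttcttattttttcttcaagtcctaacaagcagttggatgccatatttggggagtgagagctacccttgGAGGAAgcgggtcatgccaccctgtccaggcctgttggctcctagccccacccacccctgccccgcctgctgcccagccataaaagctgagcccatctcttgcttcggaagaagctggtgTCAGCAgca
Cd163, chr6:124304401-124304700, plus strand: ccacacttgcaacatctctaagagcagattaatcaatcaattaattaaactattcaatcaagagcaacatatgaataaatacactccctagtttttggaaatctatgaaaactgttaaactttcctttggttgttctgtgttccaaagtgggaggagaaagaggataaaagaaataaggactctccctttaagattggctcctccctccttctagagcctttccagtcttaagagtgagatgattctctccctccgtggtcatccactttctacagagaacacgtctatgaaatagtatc
Ccl8, chr11:82114935-82115234, plus strand: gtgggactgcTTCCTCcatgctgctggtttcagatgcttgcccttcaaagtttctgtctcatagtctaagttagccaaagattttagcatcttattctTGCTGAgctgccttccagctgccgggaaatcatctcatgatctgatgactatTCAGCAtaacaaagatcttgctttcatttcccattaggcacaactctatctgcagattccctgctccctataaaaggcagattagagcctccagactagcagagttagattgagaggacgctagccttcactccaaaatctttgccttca
Isg15, chr4:156200769-156201068, minus strand: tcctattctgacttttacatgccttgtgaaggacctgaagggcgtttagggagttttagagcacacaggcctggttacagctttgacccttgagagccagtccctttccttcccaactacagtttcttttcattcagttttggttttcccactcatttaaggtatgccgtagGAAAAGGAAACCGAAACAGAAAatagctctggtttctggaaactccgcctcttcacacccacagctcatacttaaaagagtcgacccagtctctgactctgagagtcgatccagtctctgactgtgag
Ifit3, chr19:34583279-34583578, plus strand: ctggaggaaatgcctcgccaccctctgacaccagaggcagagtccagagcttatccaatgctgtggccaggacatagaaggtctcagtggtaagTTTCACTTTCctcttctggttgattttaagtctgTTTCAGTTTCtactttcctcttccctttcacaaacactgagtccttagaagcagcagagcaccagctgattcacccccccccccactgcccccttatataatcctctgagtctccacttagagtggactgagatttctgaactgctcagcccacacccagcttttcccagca

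Cbr2 held 1 match to the PU.1 core at position -79 and 1 to the MAF core at position 42, counted from the start of transcription at 1. Ccl8 held 2 MAF cores, at -152 and -100, and 1 PU.1 core at -240, and the Cd163 window held neither. Isg15 held 3 overlapping interferon cores, with first bases at -78, -72 and -66, and Ifit3 held 2, at -156 and -122. The 2 windows of Ifit2, another gene of the interferon-stimulated list that is not printed here, held no interferon core. The interferon core was found in windows of 13 of the 21 matched genes of the interferon-stimulated list of 28 genes, against 3.99% of all 27025 genes with a window. Of the resident-type list of 34 genes, 30 were matched, and 12 of them held the MAF core and 17 the PU.1 core, against 21.7% and 31.3% of all genes. These are matches of letters and say nothing about binding.

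F13a1 and Ccl24, which the rule does not read, were named as markers of these cells together with the gate genes. They were chosen with earlier results of these data known, so their direction is not independent evidence. F13a1 (chromosome 13, 36867178 to 37050244), encoding the A subunit of coagulation factor XIII, was at 471, 455 and 564 CPM in gated macrophages of young PBS, old PBS and old rMETRNL, against 65.7, 86.8 and 84.3 CPM in other macrophages of the same libraries. It was 6.08-fold higher in gated macrophages (edgeR's quasi-likelihood test with Benjamini-Hochberg adjustment, adjusted p = 0.00216). Ccl24 (chromosome 5, 135569937 to 135573049), the chemokine eotaxin-2, was at 51.6, 52.8 and 63.8 CPM against 14.4, 17.2 and 20.6 CPM and was 3.11-fold higher (edgeR adjusted p = 7.63e-08). The lowest gated library lay above the highest library of other macrophages for both genes. F13a1 was detected in 76.5%, 83.3% and 81.8% of gated macrophages and in 33.1%, 40.6% and 37.4% of other macrophages, while fibro/adipogenic progenitors (FAPs, cells gated on Pdgfra), which should lack it, showed 3.37%, 3.63% and 4.95% at median depths of 26210, 22988 and 24885 UMIs. With each cell thinned to 5000 UMIs the F13a1 shares were 61.4%, 66.2% and 67.2% in gated macrophages, 19.3%, 25.4% and 22.8% in other macrophages, and 0.508%, 1.14% and 1.27% in FAPs. Ccl24 was found in 18.5%, 17.5% and 20.99% of thinned gated macrophages against 4.86%, 5.75% and 6.90% of thinned other macrophages, and in 32.0%, 29.0% and 36.3% of gated cells before thinning, with 1.18%, 0.907% and 1.24% of FAPs.

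Gated macrophages had higher levels than other macrophages of most resident-type genes, of Ccl8, Ccl7, Ccl2 and F13a1 and of 13 of 20 complement genes. In a list of 12 MHC class II and related genes, 11 were lower. The 3 libraries served here as replicates of the difference within a library, with the library as a term, and the genes that the rule reads were left out. At an adjusted p under 0.05, edgeR's quasi-likelihood test called 2169 of 14481 genes higher (15.0%) and 2121 lower (14.6%), and 250 of the higher and 313 of the lower genes passed 2-fold. Of the 4290 called genes, 4242 had the same direction in all 3 libraries. The genes tested were read in the same cells as the gate, and gated cells were deeper. Without the library term 400 genes were higher and 346 lower, and without the old rMETRNL library 1457 were higher and 1357 lower. DESeq2 called 1292 higher and 1155 lower.

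Resident-type genes, a list of receptors, secreted proteins, transcription factors and other genes, were mostly higher. Of the 34 genes of this list, all of which were tested, 30 rose in gated macrophages and none fell, with a median log2 difference of 0.97 against -0.0015 over all genes, where 15.0% rose. Marco, Lyz1 and Retnla were among the genes that did not pass the test. The list was written with earlier results of these data known and its direction is therefore not independent evidence. Ednrb (chromosome 14, 103814625 to 103844402), the endothelin receptor type B, was at 92.7, 97.4 and 136 CPM in gated macrophages of young PBS, old PBS and old rMETRNL and at 9.001, 19.1 and 15.2 CPM in other macrophages. Its 7.39-fold difference was the largest among called genes of at least 50 CPM (edgeR adjusted p = 0.0287), and its log2 difference was 2.89. Without the young PBS library it was 2.71 (edgeR adjusted p = 0.160), and without the old rMETRNL library 2.77 (0.191). The mannose receptor gene Mrc1 was at 657, 769 and 778 CPM against 226, 272 and 240 CPM, 2.88-fold higher (edgeR adjusted p = 9.61e-08). Clec10a, a lectin for galactose-type sugars, was at 212, 164 and 192 CPM against 51.9, 39.2 and 39.3 CPM, 4.21-fold higher. Folr2, a folate receptor gene named after its values were seen, was at 735, 580 and 767 CPM against 309, 237 and 305 CPM, 2.36-fold higher. For each of these genes the gated and other libraries did not overlap.

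Several receptors of low level had large folds. Vsig4, a complement receptor of resident macrophages, was at 12.5, 10.4 and 8.56 CPM in gated macrophages and at 0.763, 1.10 and 0.381 CPM in other macrophages, 13.7-fold higher (edgeR adjusted p = 1.30e-05). The lectin gene Cd209g was at 6.90, 6.49 and 6.58 CPM against 0.356, 0.0654 and 0.0763 CPM, and Cd209d at 2.62, 3.03 and 3.18 CPM against 0.0847, 0.147 and 0.134 CPM. Both rose, by 38.9-fold and 22.8-fold, with few UMIs behind the lower values. Cd209f was at 16.2, 16.9 and 17.3 CPM against 1.14, 0.245 and 0.210 CPM. It was 31.3-fold higher (edgeR adjusted p = 0.0312), a log2 difference of 4.97. Without old PBS the log2 difference was 4.62 and the edgeR adjusted p 0.226, and without old rMETRNL they were 4.58 and 0.101. Against all other gate cells the log2 difference was only 2.57 (edgeR adjusted p = 0.0547). The Cd209 genes are close paralogs whose reads may be divided between them in the counting. Timd4, a receptor for phosphatidylserine on dying cells, was at 1.67, 0.481 and 1.04 CPM against 0.153, 0.0818 and 0.0572 CPM. Its fold was 10.1 (edgeR adjusted p = 0.000166), but the level was near the floor of detection in every library.

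**Figure D1:**
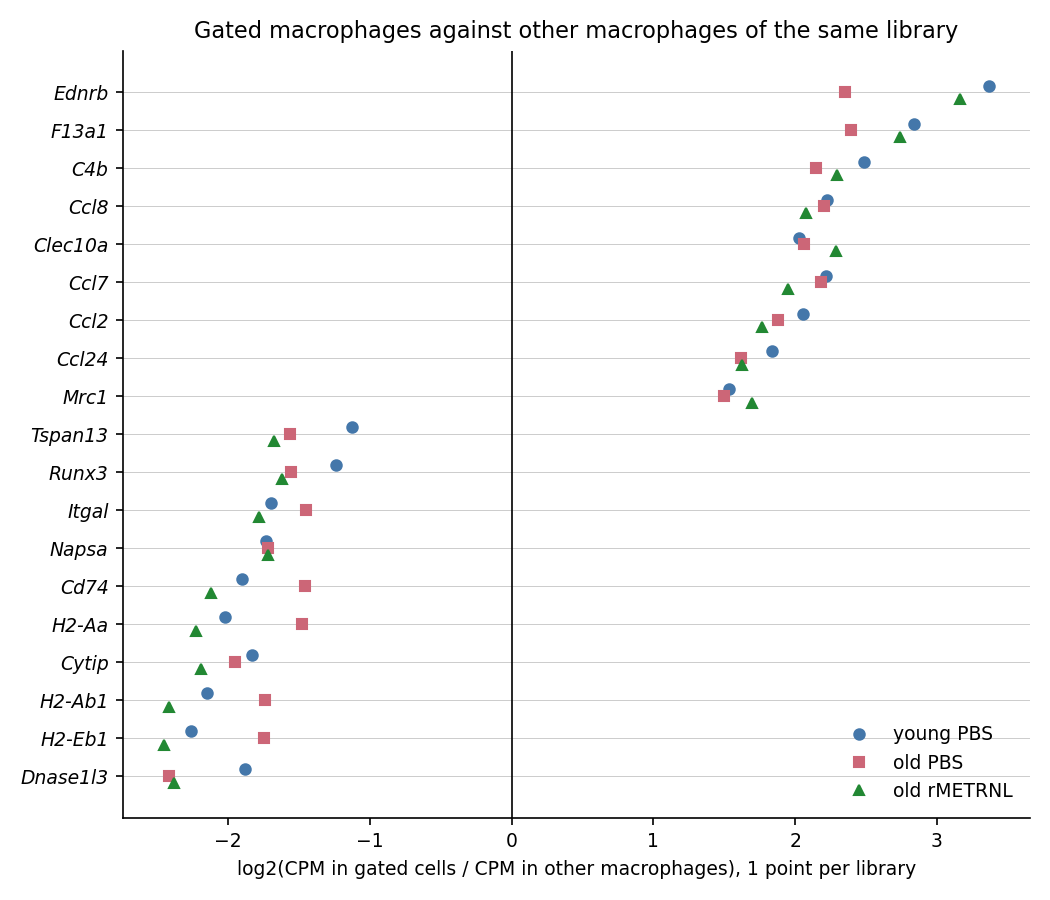
Log2 ratio of CPM in gated over other macrophages for described genes among the 10 highest and the 10 lowest called genes of at least 50 CPM, with 1 point per library (young PBS, old PBS, old rMETRNL) and a line at no difference. All points of Ednrb, F13a1 and Ccl8 lie to the right of the line and all points of H2-Aa, H2-Ab1 and Dnase1l3 to the left, with the old PBS library closest to the line for H2-Aa, H2-Ab1, H2-Eb1 and Cd74.

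The chemokine genes Ccl8, Ccl7 and Ccl2, whose products attract monocytes, were higher in gated macrophages. Ccl8 (chromosome 11, 82115185 to 82116799) was at 1898, 1722 and 2005 CPM in young PBS, old PBS and old rMETRNL, against 405, 373 and 474 CPM in other macrophages. The difference was 4.34-fold (edgeR adjusted p = 1.99e-09), and its SD over the 3 libraries was 0.08 on the log2 scale. Ccl7 was at 983, 907 and 947 CPM against 212, 200 and 246 CPM, 4.18-fold higher, and Ccl2, the main ligand of CCR2 and a close paralog of Ccl7 and Ccl8, was at 1543, 1406 and 1588 CPM against 372, 383 and 466 CPM, 3.60-fold higher (edgeR adjusted p = 6.90e-05). Cxcl2, which attracts neutrophils, was at 2555, 2972 and 2575 CPM against 1432, 1810 and 1538 CPM, 1.64-fold higher. Of the 23 chemokine genes tested, 11 rose and 4 fell, against 15.0% and 14.6% of all genes, so the count that fell was near the background. Among those that fell, Ccl22, a ligand of CCR4 made by mature dendritic cells, was at 0.628, 0.385 and 0.409 CPM against 2.61, 3.24 and 2.65 CPM. Its log2 difference was -2.64 (edgeR adjusted p = 2.49e-05), but -1.14 with each cell thinned to 5000 UMIs (edgeR adjusted p = 0.183). Ccl17, a ligand of the same receptor, had at most 1 UMI in any gated library and 0.591 to 1.19 CPM in other macrophages.

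Most complement genes that passed the test were higher in gated macrophages. Of 20 complement genes tested, 13 rose and 2 fell, against 15.0% and 14.6% of all genes. C4b was at 49.3, 66.0 and 43.1 CPM against 8.80, 14.9 and 8.76 CPM, 4.75-fold higher (edgeR adjusted p = 9.61e-08). C1qb, a subunit of the first component, was at 4391, 3887 and 4145 CPM against 4413, 3880.5 and 4009.6 CPM and did not pass the test (edgeR adjusted p = 0.193). C6, of the terminal pathway, was at 2.05 to 2.77 CPM against 0.0382 to 0.203 CPM.

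Haem and iron genes and genes for clearance of dying cells moved in both directions. Of 19 haem and iron genes, 8 rose and 6 fell, where 15.0% of all genes rose and 14.6% fell. Cp, encoding the ferroxidase ceruloplasmin, was at 22.5, 40.7 and 29.8 CPM against 7.22, 11.8 and 8.57 CPM, 3.24-fold higher (edgeR adjusted p = 9.20e-08). The transferrin receptor gene Tfrc was 2.09-fold higher, at 56.0, 77.2 and 60.7 CPM against 27.9, 32.0 and 29.2 CPM. Hmox1, the haem-degrading oxygenase, was at 863, 639 and 801 CPM against 424, 352 and 338 CPM, 1.99-fold higher, a log2 difference of 0.99 with an edgeR adjusted p of 0.00695. Without young PBS the log2 difference was 1.01 (edgeR adjusted p = 0.0842). Spic, the transcription factor of red pulp macrophages, fell by 0.51 on the log2 scale, at 31.5, 20.4 and 14.6 CPM against 35.4, 29.4 and 23.9 CPM, with an edgeR adjusted p of 0.0273. The call depended on the setting, since the log2 difference was -0.01 against all other gate cells (edgeR adjusted p = 0.928) and -0.30 with at least 2 gate genes required (0.139). The log2 difference was about as large but no longer called without old PBS, at -0.47 (edgeR adjusted p = 0.276), and without doublet calls, at -0.60 (0.0600). Of 24 genes for clearance of dying cells, 12 rose and 5 fell. Gas6, the bridge between dying cells and the TAM receptors, was at 369, 354 and 381 CPM against 121, 138 and 119 CPM, 2.82-fold higher, whereas Axl, a TAM receptor, was at 58.9, 50.9 and 32.5 CPM against 141, 127 and 102 CPM (edgeR adjusted p = 0.000299). Gas6 was thus higher and Axl lower in every gated library.

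Of 37 growth factor and cytokine genes, 14 were higher and 8 lower, against 15.0% and 14.6% of all genes. Tslp, an epithelial-type cytokine that acts on dendritic cells, was at 24.3, 24.0 and 26.7 CPM in gated macrophages against 4.07, 3.43 and 3.49 CPM in other macrophages, 6.59-fold higher (edgeR adjusted p = 5.14e-08). Bmp2 was at 13.3, 13.4 and 18.2 CPM against 2.81, 3.71 and 5.21 CPM, and Igfbp4, a binding protein of insulin-like growth factors, at 180, 133 and 174 CPM against 70.4, 61.1 and 61.6 CPM. Both rose, by 3.72-fold and 2.42-fold. Il1b, encoding interleukin 1 beta, was at 198, 272 and 166 CPM against 466, 556 and 438 CPM and was lower in gated macrophages of every library (edgeR adjusted p = 0.00111). Tnf, Igf1 and Metrnl are named here after their values were seen. Tnf was 1.56-fold higher in gated macrophages, at 214, 222 and 175 CPM against 123, 137 and 116 CPM (edgeR adjusted p = 3.05e-06). Igf1 was 1.54-fold higher, at 364, 348 and 358 CPM against 218, 237 and 215 CPM (edgeR adjusted p = 7.01e-06). Metrnl was at 207, 217 and 210 CPM against 176, 203 and 205 CPM and did not pass the test (edgeR adjusted p = 0.221).

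MHC class II genes, which present antigen to helper T cells, were low as a group. The list of 12 also held Ciita, Cd80 and Cd86, whose products do not themselves present antigen. Of the 12 genes tested, 11 fell and Cd86, a co-stimulatory ligand, rose 1.13-fold, against 14.6% of all genes falling. Reads of the closely related class II genes may be divided between them in the counting. The median log2 difference of the list was -1.60. H2-Aa (chromosome 17, 34282744 to 34287823) was at 598, 1140.5 and 467 CPM in gated macrophages of young PBS, old PBS and old rMETRNL and at 2421, 3179 and 2181 CPM in other macrophages, 3.89-fold higher in the latter (edgeR adjusted p = 0.0351). H2-Eb1 was at 406, 741 and 324 CPM against 1942, 2483 and 1770 CPM, and Cd74, the invariant chain, at 1525, 2484 and 1152 CPM against 5701, 6827 and 4999 CPM. No gated library reached the lowest library of other macrophages for any of these genes. These calls were not stable, since the edgeR adjusted p of H2-Aa, H2-Ab1, H2-Eb1 and Cd74 lay between 0.174 and 0.210 without young PBS and between 0.0982 and 0.174 without old rMETRNL, and between 0.0717 and 0.0923 with at least 2 gate genes required. The log2 differences changed little, and that of H2-Aa was -1.96 with all libraries, -1.90 without young PBS and -1.80 without old rMETRNL.

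Markers of dendritic cells moved with the MHC class II genes. Of the 9 dendritic genes tested, 5 fell and 1 rose, against 14.6% and 15.0% of all genes, and the summed level of the list was 10.7, 7.93 and 9.98 CPM in gated macrophages against 19.7, 19.7 and 20.3 CPM in other macrophages, with 1 of the 10 listed genes at 0 in gated macrophages. Ccr7, which guides mature dendritic cells to lymph nodes, was at 0.314, 0.673 and 1.29 CPM against 6.83, 7.91 and 6.54 CPM (edgeR adjusted p = 0.00241), a log2 difference of -3.15 that was -2.99 without old PBS (edgeR adjusted p = 0.0615). The part of such cells in the MHC class II difference was not tested. Other genes that fell included Dnase1l3, a nuclease that acts on chromatin outside cells, at 27.4, 11.2 and 15.9 CPM against 100.6, 60.2 and 83.1 CPM, and Napsa, an aspartic protease, at 37.5, 27.0 and 30.2 CPM against 125, 89.0 and 99.5 CPM. Itgal, the alpha chain of the integrin LFA-1, was at 20.7, 27.1 and 17.0 CPM against 67.1, 74.2 and 58.6 CPM. Cytip and Tspan13 were 4.14-fold and 2.84-fold higher in other macrophages, and without old PBS the log2 difference of Tspan13 was -1.45 with an edgeR adjusted p of 0.178.

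Of 33 macrophage transcription factors tested, 13 rose and 12 fell, against 15.0% and 14.6% of all genes. Maf, which drives resident macrophage genes, was at 531, 431 and 545 CPM against 310, 228 and 254 CPM, 1.84-fold higher (edgeR adjusted p = 0.000525). Egr1 was 2.47-fold higher, at 322, 451 and 384 CPM against 128, 180 and 143 CPM. Runx3, a Runt-family transcription factor, was at 41.6, 35.7 and 30.4 CPM against 98.3, 105 and 93.4 CPM, lower in every library. Genes of the tissue dissociation response, to which Egr1 also belongs, rose in 9 and fell in 3 of 20 cases, beside the same shares of all genes, with a summed level of 14180, 13342 and 13920 CPM in gated macrophages against 13384, 11309 and 13040 CPM in other macrophages. The part of dissociation in these values was not tested.

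The remaining lists held genes of both directions, and their counts are to be read against the 15.0% of all genes that rose and the 14.6% that fell. Of 22 lipid-associated macrophage genes, 4 rose and 6 fell, and Apoe, the lipid carrier, was at 20905, 19578 and 18754 CPM and was 1.53-fold higher in other macrophages, though it did not pass the test against all other gate cells (edgeR adjusted p = 0.152). Spp1 (edgeR adjusted p = 0.564) and Trem2 (0.578) did not pass the test. Of 32 inflammatory and monocyte genes, 8 rose and 15 fell. Of 20 type 2 macrophage genes, 6 rose and 8 fell, and Ear2, an eosinophil-associated ribonuclease, was at 0.366, 2.07 and 1.32 CPM against 7.03, 19.0 and 15.4 CPM. Of 26 interferon-stimulated genes, 8 rose and 5 fell. Of 27 matrix and protease genes, 8 rose and 9 fell. Of 26 cell cycle genes that the rule does not read, 9 rose and 2 fell, with a median log2 difference of 0.23. Before the cycling condition was applied, 19.7%, 16.9% and 20.6% of gate cells positive for the set failed it in young PBS, old PBS and old rMETRNL, against 9.56%, 9.01% and 10.5% of gate cells below the set threshold. Both conditions count raw UMIs and gated macrophages were deeper than other macrophages, and the part of depth in these shares was not tested. Among markers of other cells, 1 of 10 FAP genes rose and 3 fell, 1 of 8 lymphatic endothelial genes rose and 3 fell, 1 of 10 muscle genes rose and 2 fell, and no blood endothelial, pericyte, T cell, neutrophil or red cell gene rose. The summed FAP level was 684, 479 and 430 CPM in gated macrophages against 565, 617 and 536 CPM in other macrophages, and the lymphatic level, which bears on Lyve1, was 96.0, 94.0 and 84.0 CPM against 75.4, 80.2 and 103 CPM. The part of such RNA in the values of Lyve1 was not tested.

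F13a1, Ednrb and H2-Ab1 were also read in bins of cells by the number of UMIs of the gate genes. The median depth of a cell was 13726, 14184 and 13429 UMIs in the bin with none and 17264, 16888 and 16298 with 10 or more. These values are a description, since the gate genes set the bins. In young PBS, F13a1 went from 53.4 CPM in cells with none of the 3 genes to 189 CPM with 3 to 4 UMIs, 313 CPM with 5 to 9 and 881 CPM with 10 or more. The same bins gave 66.2, 260, 417 and 727 CPM in old PBS and 61.2, 215, 385 and 909 CPM in old rMETRNL. H2-Ab1 went the other way, from 2621 to 296 CPM in young PBS, from 3289 to 442 CPM in old PBS and from 2533 to 244 CPM in old rMETRNL. In each of the 6 bins H2-Ab1 was higher in old PBS than in the other libraries. The level of Ednrb with 10 or more UMIs was 188, 164 and 234 CPM, against 7.93, 15.6 and 13.1 CPM with none.

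**Figure D2:**
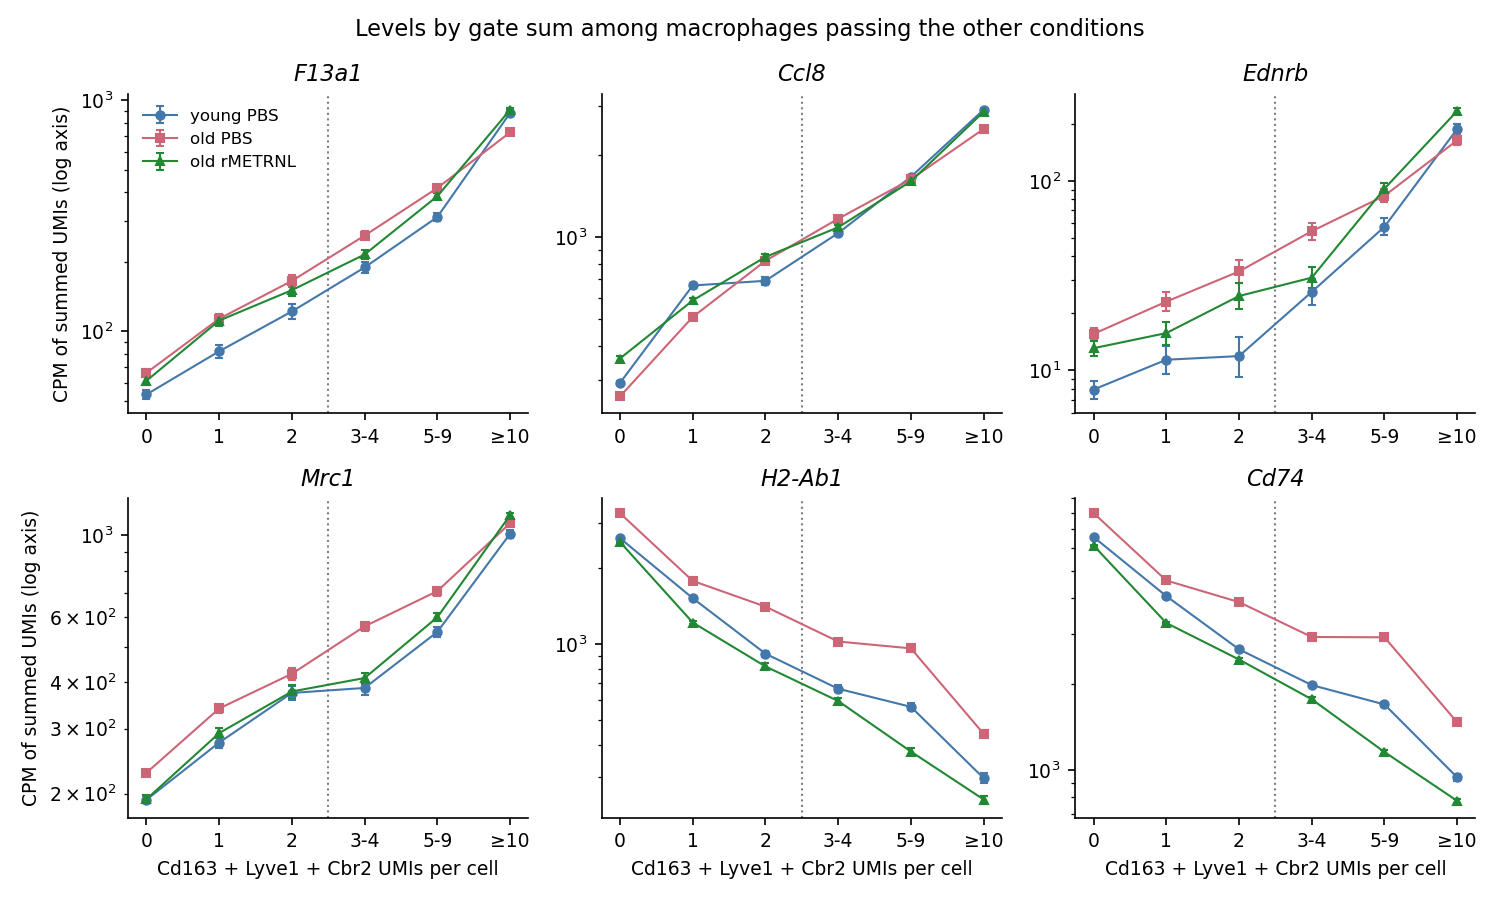
Level of 6 genes (CPM of summed UMIs, log axis) by the number of Cd163, Lyve1 and Cbr2 UMIs per cell, with 1 line per library and 95% Poisson intervals; the dotted line marks the gate. F13a1 climbs from 53.4 to 881 CPM in young PBS, while H2-Ab1 declines from 2621 to 296 CPM with the old PBS line on top in every bin.

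Within the gated macrophages, cells with Lyve1 stood apart from the cells that passed on Cbr2 alone. There were 78, 110 and 293 cells with Lyve1 in young PBS, old PBS and old rMETRNL, 174, 258 and 295 with Cd163 but no Lyve1, and 781, 781 and 1093 with Cbr2 alone. The split used gate genes and 1 UMI could decide it, so the values are given as a description. F13a1 was at 1392, 1234 and 1334 CPM in cells with Lyve1, at 821, 641 and 706 CPM in cells with Cd163 but no Lyve1, and at 314, 322 and 347 CPM in cells with Cbr2 alone. Ednrb followed the same order, with 366, 268 and 402 CPM, then 160, 164 and 166 CPM, then 53.9, 62.0 and 66.0 CPM. Vsig4 was at 45.7, 54.1 and 24.5 CPM with Lyve1 and at 0.457 to 3.79 CPM with Cbr2 alone. Cd209f was at 109, 100.5 and 71.2 CPM with Lyve1 and at 0.542 to 3.70 CPM with Cbr2 alone. Both receptor genes were thus near the floor in the cells that made up most of the population.

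Gpnmb, Spp1 and Trem2, of the lipid-associated list, were highest in the cells with Cbr2 alone. Gpnmb, a glycoprotein of lipid-laden macrophages, was at 335, 1011 and 394 CPM with Lyve1, at 631, 985 and 1036 CPM with Cd163 but no Lyve1, and at 1562, 2758 and 2439 CPM with Cbr2 alone. Spp1, encoding osteopontin, was at 722, 985 and 1046 CPM with Lyve1 against 3171, 2951 and 4196 CPM with Cbr2 alone. Trem2, named after its values were seen, differed less, with 746, 657 and 663 CPM against 1091, 1214 and 1201 CPM. Retnla, a secreted type 2 effector, was at 225, 243 and 44.7 CPM in cells with Lyve1, so that the old rMETRNL library was lower than both PBS libraries.

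**Figure D3:**
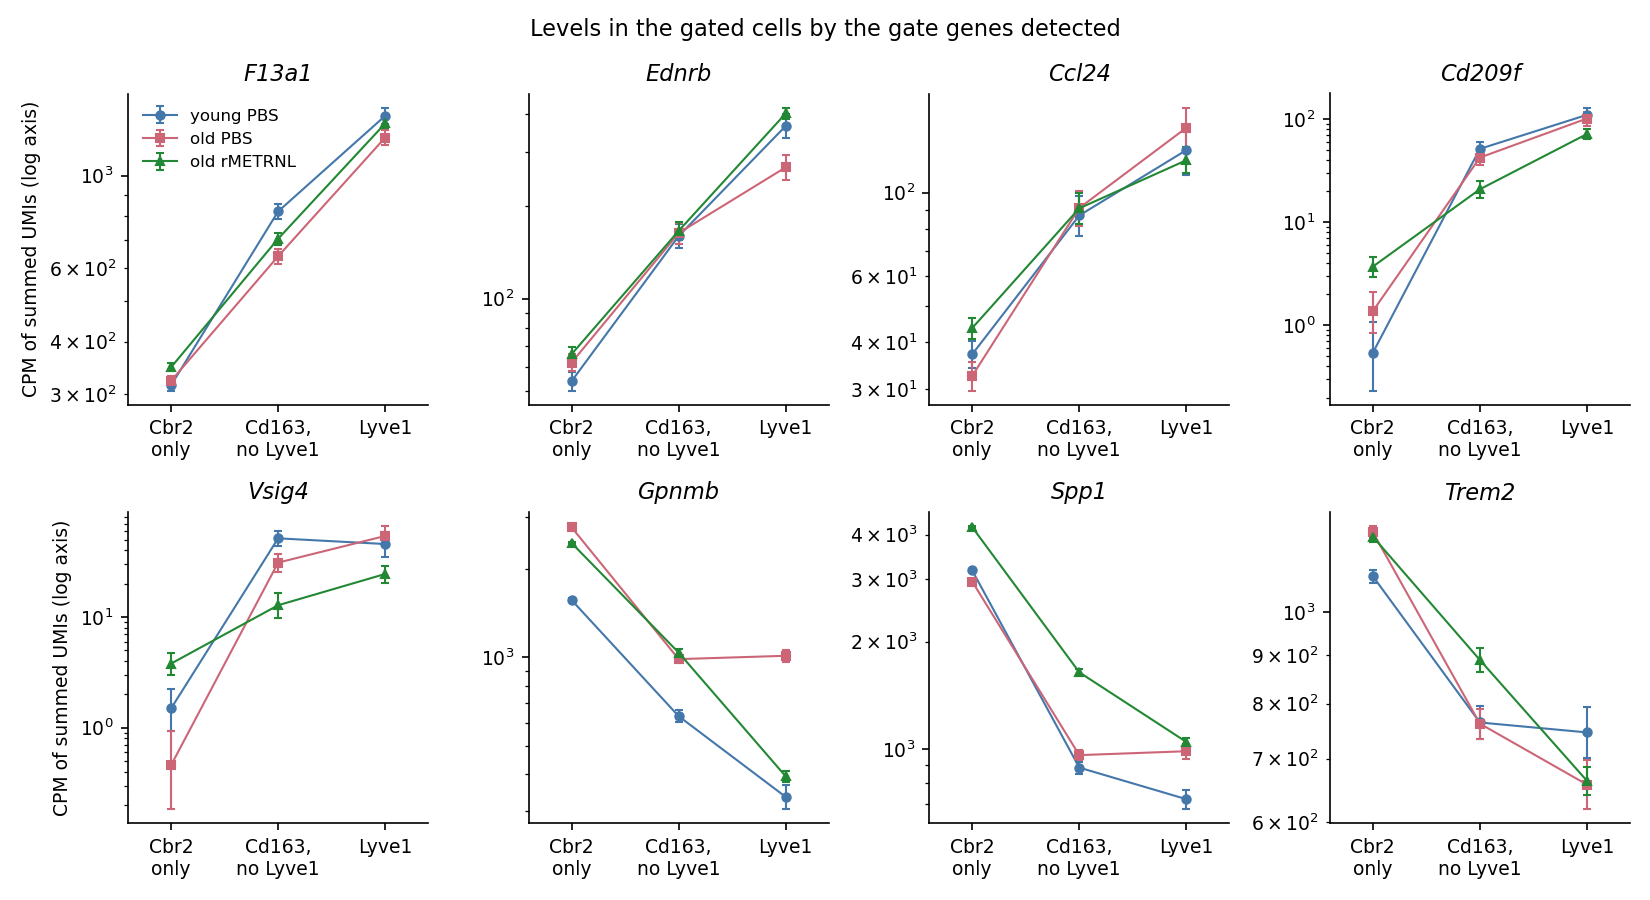
Level of 8 genes (CPM of summed UMIs, log axis) in gated macrophages split into cells with Cbr2 alone, with Cd163 but no Lyve1, and with Lyve1, with 1 line per library and 95% Poisson intervals. F13a1 rises from 314 to 1392 CPM in young PBS along this order, while Spp1 falls from 3171 to 722 CPM.

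Gated macrophages made up a larger share of macrophages in old rMETRNL than in either PBS library. They were 21.2% of macrophages meeting the other conditions in young PBS (95% exact binomial interval 20.1% to 22.4%), 22.8% in old PBS (21.7% to 24.0%) and 33.1% in old rMETRNL (31.8% to 34.4%). The ratio of old PBS to young PBS was 1.07 (0.987 to 1.17), an interval that holds 1, and the ratio of old rMETRNL to old PBS was 1.45 (1.34 to 1.56). Of all cells passing the Adgre1, Csf1r and Fcgr1 condition they were 14.5%, 17.4% and 22.0%, and of all kept cells 9.06%, 10.4% and 13.1%, so that with these denominators the age ratio was 1.20 (1.11 to 1.31) and 1.15 (1.05 to 1.25) and the treatment ratio 1.27 for both. With at least 2 gate genes required the age ratio was 1.37 (1.16 to 1.61), so whether its interval holds 1 depended on the denominator and the gate. The Ly6c2 condition was failed by 18.7%, 10.5% and 19.3% of gate cells below the set threshold and by 7.92%, 4.38% and 7.50% of those positive for the set, and its part in these ratios was not tested. With each cell thinned to 5000 UMIs the treatment ratio was 1.83, and with Cd163 and Lyve1 alone in the gate it was 1.96. A share over 1 library per group does not give the spread between mice.

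**Figure D4:**
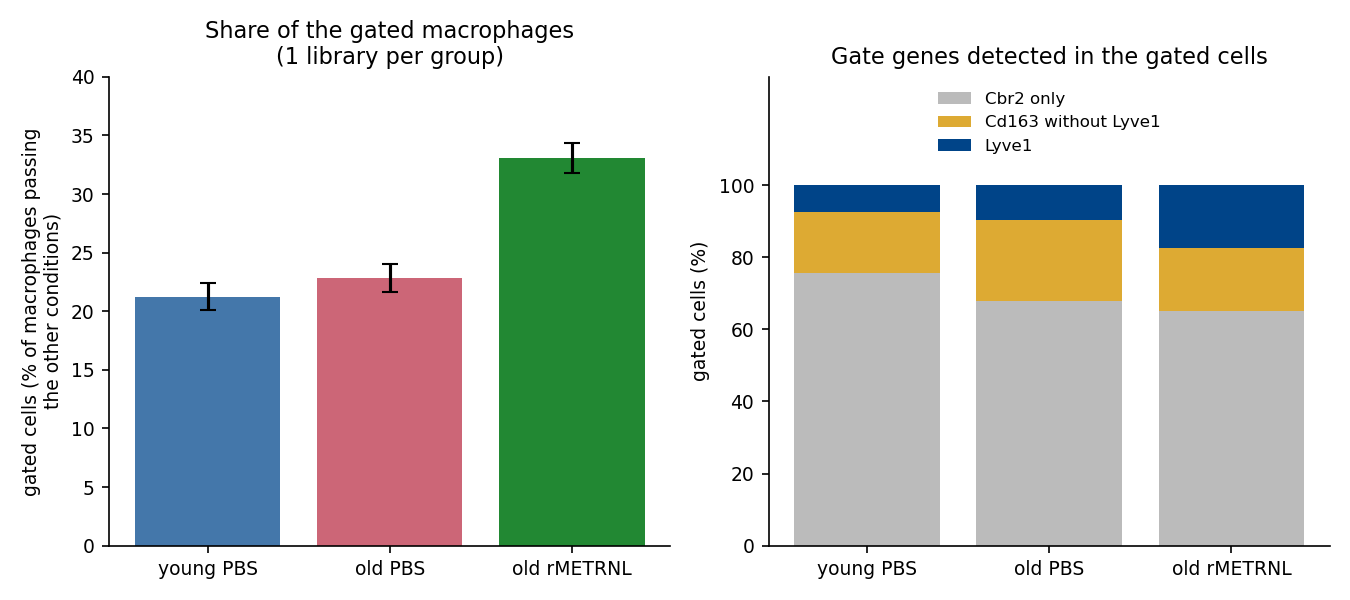
Left, gated macrophages as a percentage of macrophages meeting the other conditions in young PBS, old PBS and old rMETRNL, with 95% exact binomial intervals; right, gated cells (%) by the gate genes detected. Old rMETRNL stands at 33.1% against 21.2% and 22.8%, and its fraction with Lyve1 is 17.4% against 7.55% and 9.57%.

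The gate genes themselves also varied between libraries, which describes the selection and is not a finding. Lyve1 was at 14.7, 18.3 and 52.9 CPM in gated macrophages of young PBS, old PBS and old rMETRNL. Cd163 was at 53.5, 58.4 and 72.5 CPM and Cbr2 at 455, 381 and 483 CPM. Of the genes outside the rule, Ednrb had a treatment ratio of 1.40 (1.33 to 1.47) and F13a1 of 1.24 (1.21 to 1.27). Neither was past 1.5-fold. In other macrophages the same ratios of Ednrb and F13a1 were 0.797 (0.727 to 0.873) and 0.971 (0.933 to 1.01). Both genes were highest in cells with Lyve1, which were 17.4% of gated macrophages in old rMETRNL and 9.57% in old PBS. The part of this mix of cells in the gated ratios was not tested.

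Within gated macrophages, most interferon-stimulated genes were lower in old PBS than in both other libraries. Of 9 genes of the MHC class II list, 4 were higher. A gene is called past the fold here with a difference over 1.5-fold (0.5 UMI added to each sum) and at least 100 UMIs in the 2 libraries, without a test. In the age contrast, which divides old PBS by young PBS, 379 of 10137 genes were higher (3.74%) and 466 lower (4.6%). In the treatment contrast, which divides old rMETRNL by old PBS, 407 of 10574 genes were higher (3.85%) and 390 lower (3.69%). Both contrasts share the old PBS library, so opposite ratios of a gene may both come from that library, and their values are given side by side only.

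Interferon-stimulated genes are switched on by interferon through the response element shown above. Of 26 measured in the list, 22 were lower past the fold in the age contrast and 17 were higher in the treatment contrast, with median log2 ratios of -1.13 and 0.69 against 0.0049 and 0.031 over all genes. Ifit3 (chromosome 19, 34583531 to 34588731) was at 192, 48.5 and 147 CPM in young PBS, old PBS and old rMETRNL, which gave 0.253 (0.236 to 0.272) for age and 3.03 (2.83 to 3.24) for treatment. Isg15 (chromosome 4, 156199424 to 156200818), encoding a ubiquitin-like modifier, was at 224, 91.5 and 188 CPM, and Ifi27l2a at 2968, 1164 and 1941 CPM. Usp18, which removes the ISG15 modifier, was at 53.0, 18.2 and 45.9 CPM. The old PBS library was the lowest for each of these genes. Other macrophages showed the same order, with 24 of 26 lower in the age contrast and 19 higher in the treatment contrast and medians of -1.21 and 0.74. Of all genes in other macrophages, 5.29% were lower in the age contrast and 4.09% higher in the treatment contrast.

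The MHC class II genes H2-Aa, H2-Eb1, H2-Ab1 and Cd74 had the reverse order. Of 9 genes of the list measured, 4 were higher past the fold in the age contrast and 4 were lower in the treatment contrast. The median log2 ratios were 0.17 and -0.55. The H2-Aa values given above, 598, 1140.5 and 467 CPM, gave ratios of 1.91 (1.87 to 1.95) and 0.409 (0.401 to 0.418). H2-Eb1 gave 1.83 and 0.438, H2-Ab1 1.64 and 0.455, and Cd74 1.63 and 0.464. In other macrophages the ratios of H2-Aa were 1.31 (1.30 to 1.32) and 0.686 (0.681 to 0.691), and none of 12 genes was higher past the fold in the age contrast or lower in the treatment contrast, where 4.6% and 2.24% of all genes in other macrophages were, shares at which few or none of 12 genes would be counted. Whether the ratios differed between the populations beyond the spread of mice was not tested.

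**Figure D5:**
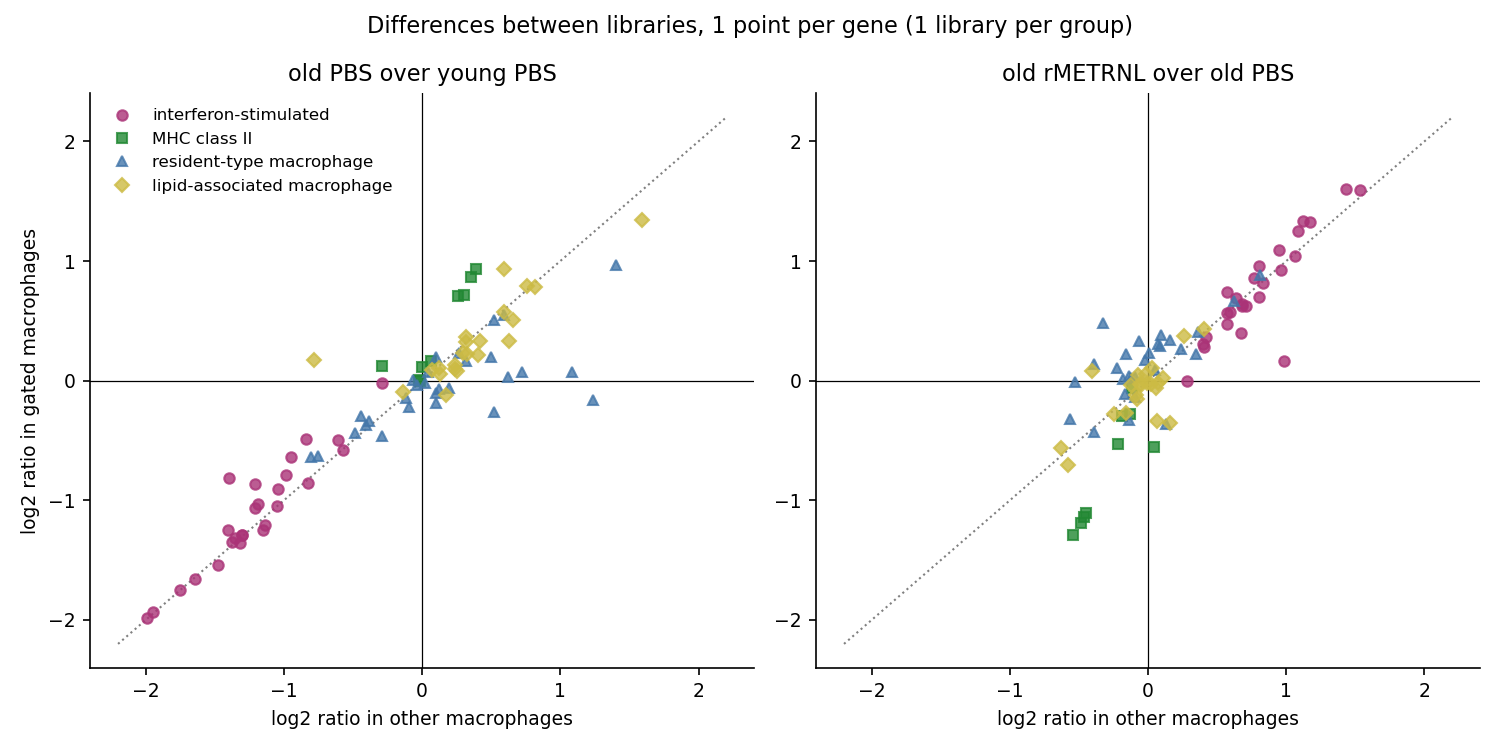
Log2 ratio between libraries in gated macrophages against that in other macrophages, with 1 point per gene, for old PBS over young PBS (left) and old rMETRNL over old PBS (right); the dotted line marks equal ratios. Interferon-stimulated genes span -1.98 to -0.02 in gated macrophages on the left and -0.01 to 1.60 on the right, while genes of the MHC class II list span -0.01 to 0.93 and -1.29 to -0.06.

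Single genes of other groups also set old PBS apart. Ccr1, a receptor for inflammatory chemokines, was at 46.4, 134.6 and 75.7 CPM in young PBS, old PBS and old rMETRNL, an age ratio of 2.90 (2.69 to 3.13). Mmp19, a matrix metalloprotease, was at 61.3, 136 and 43.8 CPM, with ratios of 2.21 and 0.322. The old PBS library was the highest for both genes. Plac8, of monocytes, was at 189, 88.3 and 184 CPM and Klf2, a transcription factor that restrains macrophage activation, at 193, 124 and 228 CPM. Inhba, the activin A subunit, was at 3.35, 15.9 and 6.49 CPM, and Il1rn, the interleukin 1 receptor antagonist, at 380, 609 and 357 CPM. All 6 of these genes were past the fold in both contrasts.

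Of 32 resident-type genes measured, 1 was higher and 2 were lower in the age contrast, where 3.74% and 4.6% of all genes were. In the treatment contrast 2 were higher, where 3.85% of all genes were, so both counts were near the background. The medians were -0.05 and 0.10. Pf4, platelet factor 4, was at 2428, 1788 and 2832 CPM, a treatment ratio of 1.58 (1.57 to 1.60). Mgl2, a lectin gene, was at 14.8, 29.0 and 23.2 CPM. Of 22 lipid-associated genes, 4 were higher in the age contrast and 1 was lower in the treatment contrast, where 3.69% of all genes were lower, so the latter count was near the background. In other macrophages 7 of the 22 were higher in the age contrast, where 4.6% of all genes were. The age medians on the log2 scale were 0.32 in other and 0.23 in gated macrophages. In gated macrophages Gpnmb was at 1328, 2292 and 1887 CPM, an age ratio of 1.73 (1.70 to 1.75). Atp6v0d2, a subunit of the lysosomal proton pump, was at 68.2, 172 and 106 CPM. In iron handling, Slc40a1, the iron exporter ferroportin, was at 25.9, 8.70 and 19.8 CPM, with ratios of 0.335 and 2.28. For Tnf the age ratio was 1.04 (0.995 to 1.08), while the treatment ratio was 0.792 (0.761 to 0.824), and Metrnl had ratios of 1.05 (1.01 to 1.10) and 0.968 (0.932 to 1.01).

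Of the 20 dissociation genes, 2 were lower in the age contrast and 4 higher and 1 lower in the treatment contrast, with medians of -0.04 and 0.02. Of all genes, 4.6% were lower in the age contrast and 3.85% higher and 3.69% lower in the treatment contrast. Single genes of the list, and red cell and muscle transcripts, were past the fold. Hspa1a, an inducible heat shock protein, was at 1394, 856 and 1546 CPM in gated macrophages and Hspb1 at 58.3, 26.6 and 55.6 CPM. The summed level of 10 muscle genes was 119, 662 and 221 CPM in gated and 143, 344 and 198 CPM in other macrophages, and Acta1, skeletal alpha actin, was at 35.4, 271 and 65.9 CPM. A single old PBS cell held 60.4% of the Acta1 UMIs, and without the highest cell of each library the age ratio went from 7.66 to 3.60. Sln, encoding sarcolipin, a regulator of the muscle calcium pump, was at 0.418, 50.04 and 0.220 CPM with 98.9% of its old PBS UMIs in 1 cell. Hbb-bs, a beta globin, was at 197, 13.6 and 99.4 CPM, with 91.0% of the young PBS UMIs and 71.4% of the old rMETRNL UMIs in 1 cell. The part of these cells in the ratios of other genes was not tested. With the highest cell of Ifit3 and of H2-Aa left out in each library, their age ratios were 0.246 and 1.92. Those cells need not be the cells with muscle or red cell transcripts.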

How the data were processed

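Tibialis anterior cells were measured with droplet 3′ single-cell RNA sequencing in 3 libraries, 1 for each of the groups young PBS, old PBS and old rMETRNL, which were read from the sample labels. The authors aligned reads to the mm10 mouse genome and deposited raw UMI counts per gene and barcode for each library. The matrix headers name Cell Ranger 5.0.0, and the submitters' processing notes list 5.0.0 and 3.1.0 without assigning steps. Of 38748 deposited barcodes, 35247 passed the limits of 500 genes and 10% mitochondrial UMIs.

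The members, the gene lists and the promoter motifs were chosen with earlier results of these data known. UMIs were summed per population and library with Python 3.11.15, NumPy 2.4.6, SciPy 1.17.1 and pandas 2.3.3. Gated and other macrophages were compared over the 6 sums with edgeR 4.0.16 in R 4.3.3 (TMM factors, filterByExpr, quasi-likelihood test, the library as a term, Benjamini-Hochberg adjustment over all genes tested). The fit was tested on simulated data. Libraries were compared by CPM with exact 95% intervals and no test. Members with the same barcode in different libraries were counted, and none was found. PCR copies were removed by the UMIs, and the intervals leave out variation between mice and pools.

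Genes named were, against other macrophages, the 10 with the largest fold in each direction among those called, in the same direction in 3 libraries and with at least 50 CPM in the higher population. Per contrast between libraries they were the 10 highest and 10 lowest ratios past 1.5-fold with at least 50 CPM in the higher library. In every list up to 4 genes with the largest change and the gene with the most UMIs were added, and the 5 markers were always included. Only a selection of these genes is described, and some results are not reported here. Genes named outside the rule, after their values were seen, were Folr2, Tnf, Igf1, Metrnl, Trem2, Retnla, Marco, Lyz1, Cd86, Cd80 and Ciita.

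Gene coordinates are those of the GRCm38 build, from the GENCODE M21 annotation by gene ID, which matched 32158 of 32285 IDs. Promoter sequences were those of the RefSeq windows, and no other genome sequence was used. Scrublet, run in Scanpy 1.11.5, called no cell by its automatic threshold, so doublets were kept. As an alternative, cells with the highest scores were left out at 0.8% per 1000 barcodes, which took 6.87% to 7.83% of gated macrophages. The other alternatives were DESeq2 1.42.0, other scaling, filters, folds, gates and denominators, thinning to 5000 UMIs and leaving out each library. Figures were drawn with matplotlib 3.10.9.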

Additional observations from a re-analysis of the deposited data

Results flagged for a closer look

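The chemokine genes Cxcl9 and Ccl5, whose products attract activated T cells, had ratios in gated macrophages that ran against those in other macrophages of the same libraries. Cxcl9 was at 25.9, 56.7 and 30.0 CPM in gated macrophages of young PBS, old PBS and old rMETRNL and at 114, 78.9 and 120 CPM in other macrophages. Its age ratio was 2.18 in gated and 0.692 in other macrophages, and its treatment ratio 0.529 and 1.52. Ccl5 was at 8.05, 31.2 and 13.1 CPM in gated macrophages and at 84.1, 68.2 and 86.4 CPM in other macrophages. Its age ratio was 3.87 in gated and 0.811 in other macrophages, and its treatment ratio 0.420 and 1.27. The single cell with the most UMIs held 12.5% to 18.9% of Cxcl9 UMIs in a gated library and 7.69% to 14.3% of Ccl5 UMIs. With each cell thinned to 5000 UMIs the treatment log2 ratio of Ccl5 in gated macrophages changed sign, to 0.42. These differences between the populations were not tested, since each group had 1 library. Other macrophages had the higher level of both genes in every library.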

How the results depend on the processing

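The share of gated macrophages was compared between libraries under 8 other settings. The ratio of old rMETRNL to old PBS was 1.83 with thinned cells, 1.69 with at least 5 UMIs of the set, 1.74 with at least 2 genes of the set, 1.27 with all gate cells or all kept cells as the denominator, and 1.96 with Cd163 and Lyve1 alone, a setting chosen after the data were seen. The ratio of old PBS to young PBS was 1.37 with at least 2 genes, 1.20 with all gate cells as the denominator and 1.33 with Cd163 and Lyve1 alone. Genes higher and lower in gated than in other macrophages numbered 1292 and 1155 with DESeq2 and 400 and 346 without the library term, and 3649 were higher against all other gate cells. With each library left out, 1457 to 1908 were higher and 1357 to 1861 lower. In the age contrast, 848 genes were higher and 1008 lower with at least 20 UMIs, 92 and 108 past 2-fold, and 307, 264 and 227 lower with at least 200 UMIs, with thinned cells and with Cd163 and Lyve1 alone. In the treatment contrast, 941 were higher and 845 lower with at least 20 UMIs, 91 and 85 past 2-fold, and 255 higher with at least 200 UMIs. Stricter filters and folds count fewer genes by construction, and the cause of the other differences was not tested. Among named genes between libraries, 380 values under the alternatives stayed within the counting interval, 212 moved beyond it and 5 changed sign on the log2 scale. Mmp12 in the age contrast was -0.12 with thinned cells and -0.0073 with at least 2 genes. Hbb-bs in the treatment contrast was -0.12 with at least 2 genes and -0.28 with Cd163 and Lyve1 alone, and Ccl5 in the treatment contrast was 0.42 with thinned cells. No paired analysis was possible because, between groups, each had 1 library and they share only replicate number 1, while gated and other macrophages were compared within libraries throughout, except without the library term. Single libraries, counting error and low levels of receptor genes limit the precision.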

Other observations

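The genes Slc7a11, Serpinb2 and C3 were also past the fold in both contrasts within gated macrophages. Slc7a11, the cystine importer that feeds glutathione synthesis, was at 16.1, 40.7 and 12.7 CPM in young PBS, old PBS and old rMETRNL, which gave 2.52 (2.21 to 2.89) for age and 0.311 (0.276 to 0.351) for treatment. Serpinb2, an inhibitor of plasminogen activators, was at 2.04, 9.90 and 2.39 CPM, although 1 cell held 38.5% of its young PBS UMIs and 24.3% of its old PBS UMIs. Other macrophages gave Slc7a11 ratios of 3.02 and 0.402. C3, the central complement component, was at 19.5, 37.3 and 22.4 CPM in gated macrophages, with ratios of 1.91 and 0.6002, while other macrophages gave 1.05 and 0.942.

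The matrix metalloprotease gene Mmp12 was at 75.9, 145 and 114 CPM in gated macrophages against 174, 262 and 292 CPM in other macrophages. It was called lower by edgeR's quasi-likelihood test (adjusted p = 0.0155), and without young PBS the log2 difference was -1.16 against -1.19, with an edgeR adjusted p of 0.147.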
